A study of Arabidopsis thaliana with 10 samples.

Results

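The genes described here are 46 heat shock genes of Arabidopsis thaliana, taken by gene identifier from the 27394 genes in the deposited pollen tables: 16 small heat shock proteins (sHSPs), 14 HSP70s, 7 HSP90s, HSP101 and 8 regulators of the heat response. All 46 were found in every table. Messenger RNA was measured in 10 pollen libraries that form 5 groups of 2, all in the Col-0 background and from plants grown in greenhouse long days. WT Col-0 is unsorted wild-type pollen, and pLAT52::RTL1 and pMGH3::RTL1 are unsorted pollen of plants homozygous for a Myc-tagged RTL1, an RNase III-like enzyme that suppresses small interfering RNAs (siRNAs), behind a promoter of the vegetative cell lineage (LAT52) or of the male germline (MGH3). Each construct was represented by independent transgenic lines, so the spread within these groups can include a difference between lines. WT FTL and nrpd1a-3 FTL pollen came from shared parents, FTL1230/+;nrpd1a-3/+ plants, and the grains were separated by fluorescence-activated cell sorting: DsRed-positive grains (pLAT52::DsRed) are wild type and DsRed-negative grains carry nrpd1a-3, a mutant allele of the largest subunit of RNA polymerase IV. None of the groups is labelled as heat-treated.

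Heat shock proteins are molecular chaperones. Small HSPs hold unfolding proteins in a state from which HSP70 and the disaggregase HSP101 can recover them, HSP90 matures signalling proteins, and close relatives of HSP70 (BiP in the endoplasmic reticulum, MTHSC70 in mitochondria, CPHSC70 in chloroplasts) fold or import proteins in organelles. Heat shock factors (HSFs) turn these genes on by binding heat shock elements, inverted repeats of the unit GAA and its complement TTC, and many constitutive relatives (the HSC70s, HSP90.2 to HSP90.4, BiP) are also expressed without heat. Pollen development is known as one of the heat-sensitive stages of plant reproduction.

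Heat shock elements were searched in the 250 bases before and 50 bases after each gene start, on both strands, as runs of 2 units (GAANNTTC or TTCNNGAA) or 3 units (GAANNTTCNNGAA or TTCNNGAANNTTC), the shorter motif being part of the longer. A 3-unit run was present in 13 of the 46 windows (28.3%), against 165 of 26906 windows of all genes (0.613%), and a 2-unit run in 28 (60.9%) against 5471 (20.3%). The windows below come from the TAIR10.1 genome and are written 5′ to 3′ on the strand of the gene, with capitals marking the units. They belong to some of the members whose levels are described next, among them members that were higher, lower or neither in sorted pollen.
HSP17.6C (chr1:19980238-19980267, plus strand): caacaccaGAAacTTCttGAAagcacctga
HSP17.4 (chr3:16984945-16984974, minus strand): tcaacataGAAgcTTCttGAAgccacctga
HSP18.2 (chr5:24062388-24062417, plus strand): caacaaacGAAacTTCctGAAatgccaaga
HSP17.6B (chr2:12633920-12633949, minus strand): aaatgctcctaGAAttTTCtggattcacct
HSP17.6II (chr5:3883035-3883064, minus strand): gaccaagacgtTTCtcGAAcaatacggaag
HSP17.7 (chr5:3884842-3884871, minus strand): gatcaagacgtTTCtcGAAcgttagagaag
HSC70-1 (chr5:556553-556582, minus strand): caaccatcGAAcaTTCtcGAAacattttaa
HSC70-2 (chr5:552685-552714, minus strand): taattacaGAAcaTTCtgGAAactcaagtc
HSP70-4 (chr3:3993845-3993874, minus strand): ttactcgtGAAcgTTCtcGAAagctctttg
CPHSC70-2 (chr5:20303341-20303370, plus strand): caaccattTTCtaGAAccTTCcacttcttc
HSP90.1 (chr5:21352254-21352283, plus strand): aacgaaaaGAActTTCtgGAAttcgtttgc
HSFB2B (chr4:7042450-7042479, plus strand): aaaaaagaGAAacTTCtgGAAaaagaaaag
MBF1C (chr3:8918569-8918598, plus strand): atcatctctaaGAAcgTTCcagagacgaaa
HSP17.8, HSP70B, BIP1, BIP2, MTHSC70-1, HSP90.2, HSP90.3, HSP90.4 and HSP90.7 held neither motif in this window. Of the members described next but not shown, HSC70-3 and HSFB2A held a 3-unit run. HSP17.6A, HSP17.4B, MTHSC70-2 and HSP101 held a 2-unit run. The neighbouring class II genes HSP17.6II and HSP17.7 shared the same 2 units with 2 bases between them. For HSP17.6B, HSP18.2, HSP17.4B, HSP90.2, HSFB2B and MBF1C, among others, the window lay wholly inside the span of the longest RefSeq transcript. Sequence upstream of that transcript was not searched in these genes.

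Reads over genes and transposable elements (TEs) numbered 43490027 to 53471964 per library. RTL1 had 134 to 270 reads in the 4 RTL1 libraries and 0 in the other 6. NRPD1A had 0 to 12 reads in every library, among them 10 and 0 in nrpd1a-3 FTL, so its reads could not check those labels. The 10 sperm cell and 10 vegetative cell markers were all detected. Of 6 tapetum markers, A9, MS1 and ATA7 had 0 reads throughout, while the sum over all 6 was 7 to 49 reads per library. Summed over 10 leaf markers, nrpd1a-3 FTL replicate 1 stood apart, with a normalized count of 979 against 59.9 in replicate 2. Levels below are normalized counts on 1 scale for all 10 libraries (median-of-ratios size factors), while fold changes come from the DESeq2 fit of each comparison, with adjusted p taken over all genes and TEs.

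Most heat shock genes were expressed at low levels in pollen. Of the 46 members, 30 had over 10 reads in at least 1 library and 17 had 10 or more in all 10. HSP15.7, HSFA7A and HSFA7B had 0 reads in every library, and 13 more never exceeded 8: the organelle sHSPs HSP21, HSP23.5, HSP23.6 and HSP26.5, HSP15.4, HSP70T-1, HSP70T-2, BIP3, CPHSC70-1, HSP90.5, HSFA2, HSFA3 and HSFB1. HSFA2, which amplifies the heat response, and BIP3, the BiP gene induced by endoplasmic reticulum stress, were thus near the limit of detection with and without sorting. HSP22, a sHSP of the endomembrane system, reached 14 reads in nrpd1a-3 FTL replicate 2 and 0 to 6 elsewhere, and the mitochondrial HSP90.6 reached 14 in pLAT52::RTL1 replicate 1 and 0 to 6 elsewhere. A gene at 0 may have had up to 3 reads at this depth, and this covers counting error only.

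Per kilobase of transcript, the WT Col-0 levels were headed by CPHSC70-2 (520 ± 7.36 normalized counts per kb, SD, n = 2), a chloroplast HSP70, by HSP70-4 (358 ± 70.4), a cytosolic HSP70, and by HSP17.4 (282 ± 128). An unknown part of the CPHSC70-2 reads may belong to an overlapping antisense gene, described below, so its rank is uncertain. HSP17.4 and HSP70-4 did not differ beyond their spread. HSFB2A, a repressor-type HSF, followed at 99.8 ± 2.91, and then HSP17.6C at 82.7 ± 66.6, HSP70B at 71.6 ± 47.3, HSP90.4 at 71.2 ± 7.08, BIP1 at 67.0 ± 7.82 and HSC70-1 at 61.1 ± 5.62, a run of neighbours within each other's spread. In WT FTL the order differed. HSP17.6B (1605 ± 979 per kb) and HSP17.4 (1316 ± 433) stood above CPHSC70-2 (637 ± 416), although their spreads overlapped. In WT Col-0, HSP17.6B had been at 59.2 ± 30.7 per kb.

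Sorted and unsorted wild-type pollen differed in most of the heat shock genes that could be tested. In WT FTL against WT Col-0, 29 of the 46 members passed the filter on low counts and 21 passed the test (DESeq2, adjusted p under 0.05), 14 higher and 7 lower. Over all genes and TEs 30.3% of those tested were called, 14.9% higher and 15.44% lower, and the median log2 fold change was 0.00 against 1.84 for the 29 members. The cytosolic sHSPs other than HSP18.2 and the inducible HSP90.1 were higher, as were HSP17.4B, HSP70B, MBF1C and the constitutive HSC70-2, HSP90.2 and HSP90.3, while HSP18.2, HSC70-1, BIP1, BIP2, both mitochondrial HSP70s and HSFB2B were lower. The grains of WT FTL had been sorted, came from other parents and belonged to another experiment than WT Col-0, and these differences cannot be told apart. Of the 10 vegetative cell markers 7 were lower in WT FTL, and their summed normalized count was 354357 to 530275 against 1814210 to 1910500 in WT Col-0. Of the 10 sperm cell markers 2 were lower, with sums of 22643 to 34990 against 27064.5 to 28908.9 in WT Col-0. The part of these marker shifts in the results below was not tested, and in bulk pollen fewer cells of a type and less RNA per cell cannot be told apart.

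**Figure D1:**
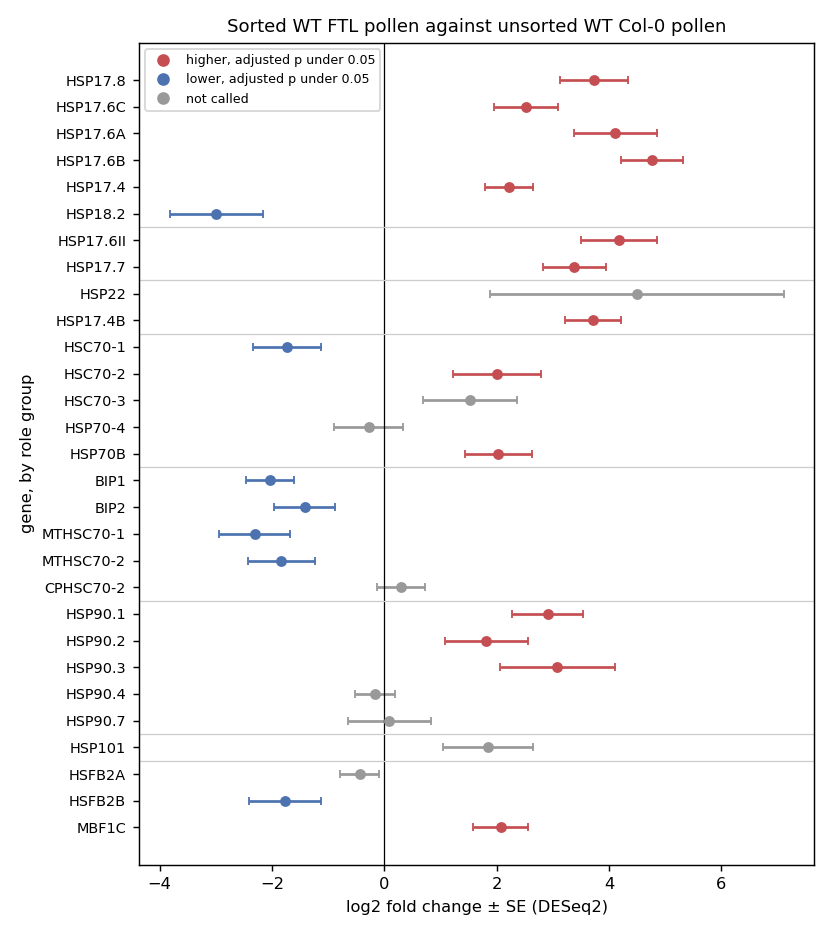
DESeq2 log2 fold change with its SE (x axis) for the 29 tested heat shock genes (y axis, by role group) in sorted WT FTL against unsorted WT Col-0 pollen, 2 libraries each. Points are red where higher, blue where lower and grey where not called; 14 genes are higher, with HSP17.6B at 4.77, and 7 are lower, with HSP18.2 at -2.99.

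All 8 cytosolic sHSP genes passed the test, 7 higher and 1 lower. Their summed normalized count was 226 to 615 in the 6 unsorted libraries and 3523 to 6884 in the 4 sorted ones. HSP17.6B (AT2G29500, chromosome 2, 12633091 to 12633805, minus strand) was measured in all libraries, with the normalized counts of WT Col-0 at 85.4 and 39.6, of pLAT52::RTL1 at 45.1 and 46.2, of pMGH3::RTL1 at 94.7 and 92.6, of WT FTL at 964 and 2427, and of nrpd1a-3 FTL at 1692 and 5194. Every sorted library lay above every unsorted one, and the sorted replicates also differed from each other by more than 2-fold. The log2 fold change of HSP17.6B in WT FTL was 4.77 ± 0.55 (SE, adjusted p = 1.11e-15, DESeq2), a 27.2-fold difference. Leaving out WT Col-0 replicate 1 gave 5.41, and leaving out WT FTL replicate 2 gave 3.95.

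HSP17.4 (AT3G46230, chromosome 3, 16984118 to 16984841), the cytosolic sHSP with the highest level per kilobase in WT Col-0, had normalized counts of 269.8 and 139 there, 1174 and 732 in WT FTL, with 822 and 599 in nrpd1a-3 FTL. It rose 4.68-fold in WT FTL (log2 2.23 ± 0.43, adjusted p = 3.01e-06, DESeq2). HSP17.6C, whose window holds 3 units in the same order, had 117 and 32.0 in WT Col-0 and 614 and 237 in WT FTL, a 5.75-fold rise (log2 2.52 ± 0.57, adjusted p = 0.000115, DESeq2). The size of the HSP17.6C change rested on single libraries, with log2 values of 3.73 without WT Col-0 replicate 1, 1.86 without its replicate 2 and 1.68 without WT FTL replicate 1. The groups did not overlap for either gene, though WT Col-0 replicate 1 was above replicate 2 for both.

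The class II genes, whose products form complexes separate from those of class I, rose as well. HSP17.6II had normalized counts of 15.74 and 5.65 in WT Col-0 and 236 and 144 in WT FTL (log2 4.18 ± 0.68, adjusted p = 2.95e-08, DESeq2), with 139 and 76.5 in nrpd1a-3 FTL. HSP17.7 had 47.2 and 15.1 in WT Col-0 and 256 and 389 in WT FTL (log2 3.39 ± 0.56, adjusted p = 5.98e-08, DESeq2), with 403 and 383 in nrpd1a-3 FTL. These genes lie beside each other on chromosome 5 (3882237 to 3882938 and 3884107 to 3884737), and their coding sequences were 87.3% identical. Without WT Col-0 replicate 1 their log2 values were 5.06 and 4.41, and without replicate 2 they were 3.58 and 2.76.

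The class I genes HSP17.8 and HSP17.6A, close paralogs, also rose. HSP17.8 had normalized counts of 31.5 and 5.65 in WT Col-0 and 196 and 290.4 in WT FTL (log2 3.73 ± 0.61, adjusted p = 2.58e-08, DESeq2), with 226 and 179.6 in nrpd1a-3 FTL. HSP17.6A had 10.12 and 1.88 in WT Col-0 and 75.7 and 126 in WT FTL (log2 4.11 ± 0.74, adjusted p = 6.86e-07, DESeq2), with 100.3 and 156 in nrpd1a-3 FTL. Their coding sequences were 90.32% identical, so reads may have been split between them and each value alone is uncertain. Without WT Col-0 replicate 1 the log2 values of HSP17.8 and HSP17.6A were 5.41 and 5.73, and without replicate 2 they were 2.93 and 3.30.

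HSP18.2 (AT5G59720, chromosome 5, 24062577 to 24063277) was the exception among the cytosolic sHSPs. By normalized count, the libraries of WT Col-0 stood at 38.2 and 40.5, of pLAT52::RTL1 at 23.2 and 26.6, of pMGH3::RTL1 at 36.9 and 30.6, of WT FTL at 7.39 and 2.25, and of nrpd1a-3 FTL at 6.33 and 3.33. All 4 sorted libraries, with 2 to 8 reads each, were below all 6 unsorted ones. HSP18.2 fell by 2.99 on the log2 scale (SE 0.83, adjusted p = 0.00196, DESeq2) in WT FTL, and its window holds a 3-unit run like those of HSP17.6C and HSP17.4, which rose. Outside these classes, HSP17.4B had 41.6 and 13.2 in WT Col-0 and 283 and 425 in WT FTL, a 13.1-fold rise (log2 3.71 ± 0.50, adjusted p = 1.28e-11, DESeq2). Without WT FTL replicate 1 HSP18.2 was at -4.13, and its weakest value over the 18 alternatives was -2.41. HSP17.4B was at 4.73 and 3.07 without WT Col-0 replicate 1 and replicate 2.

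**Figure D2:**
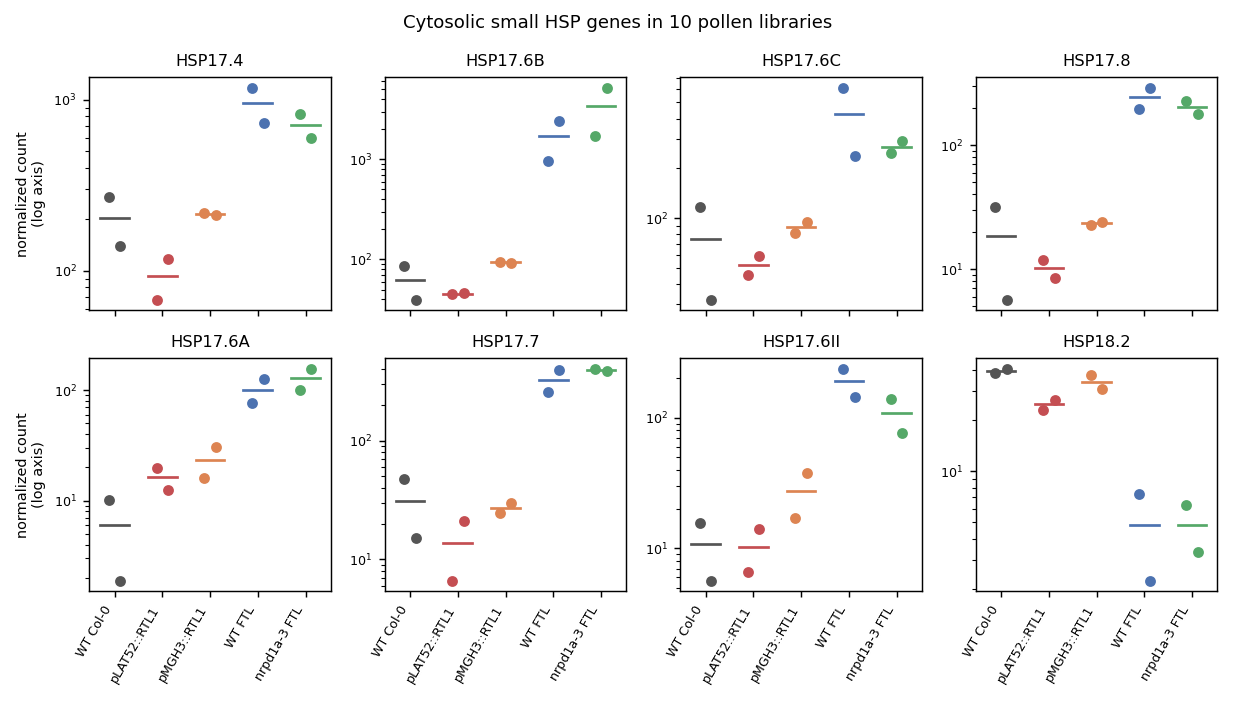
Normalized counts (log y axis, a separate range for each panel) of the 8 cytosolic small HSP genes in each of the 10 libraries; dots are libraries, bars are means of the 2 libraries of a group (x axis). In 7 panels the 4 sorted libraries (WT FTL, nrpd1a-3 FTL) lie above the 6 unsorted ones, and in the panel of HSP18.2 they lie below.

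Of 5 cytosolic HSP70 genes tested, 2 rose and 1 fell. HSC70-1 (AT5G02500), the main constitutive gene in many tissues, was measured in all libraries, with the normalized counts of WT Col-0 at 166 and 146, of pLAT52::RTL1 at 301 and 287, of pMGH3::RTL1 at 153 and 152, of WT FTL at 53.6 and 40.5, and of nrpd1a-3 FTL at 133 and 19.96. It fell by 1.73 on the log2 scale in WT FTL (SE 0.61, adjusted p = 0.0184, DESeq2). Within nrpd1a-3 FTL its levels lay far apart, and the higher was in replicate 1, the library with the high leaf marker sum, whose part in this value was not tested.

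HSC70-2, the neighbour of HSC70-1 on chromosome 5 (550035 to 552647 and 553745 to 556442), moved the other way. It had 19.1 and 5.65 in WT Col-0 and 68.3 and 29.3 in WT FTL (log2 2.00 ± 0.78, adjusted p = 0.0373, DESeq2). Both windows hold a 3-unit run. The coding sequences of HSC70-1 and HSC70-2 were 87.2% identical, so the genes may share reads. HSP70B, a heat-inducible gene, had 269.8 and 98.0 in WT Col-0 and 1222 and 279 in WT FTL (log2 2.03 ± 0.60, adjusted p = 0.00369, DESeq2), so that the lower WT FTL library was only just above the higher WT Col-0 one. Without WT FTL replicate 1 the log2 value of HSP70B was 0.60 and it was not called, while leaving out WT Col-0 replicate 1 gave 2.93 and leaving out WT FTL replicate 2 gave 2.74. The HSP70B call was also lost without WT Col-0 replicate 2 and in the fit of the 4 WT Col-0 and WT FTL libraries alone. HSC70-2 was at 3.11 without WT Col-0 replicate 1, and at 1.35 and 1.25, not called, without WT Col-0 replicate 2 and WT FTL replicate 1.

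HSP70-4, the most abundant cytosolic HSP70 per kilobase over all libraries, had 1027 and 776 in WT Col-0, 1213 and 270.1 in WT FTL, and 308 and 163 with nrpd1a-3 FTL. The change of HSP70-4 in WT FTL was -0.28 ± 0.62 on the log2 scale and was not called (adjusted p = 0.781, DESeq2), with a 95% interval from -1.49 to 0.92. The WT FTL libraries disagreed, and without replicate 1 HSP70-4 was called lower at -1.74 (adjusted p = 0.0121, DESeq2). HSC70-3 was not called either (log2 1.53 ± 0.84).

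Among the organelle HSP70 genes 5 were tested, of which 4 fell and none rose. BIP1 (AT5G28540, chromosome 5, 10540460 to 10543375), an endoplasmic reticulum chaperone, had normalized counts of 206 and 174 in WT Col-0, 64.6 and 27.0 in WT FTL, with 60.2 and 58.2 in nrpd1a-3 FTL. It fell by 2.04 on the log2 scale in WT FTL (SE 0.43, adjusted p = 2.61e-05, DESeq2). BIP2 had 121 and 86.7 in WT Col-0 and 59.1 and 18.0 in WT FTL, and fell by 1.42 (SE 0.54, adjusted p = 0.0315, DESeq2). The BIP2 call was lost under 9 of 18 alternatives, among them the fit of the 4 WT Col-0 and WT FTL libraries alone and no independent filtering. Without WT FTL replicate 1 the log2 values were -2.82 for BIP1 and -2.53 for BIP2, and without WT FTL replicate 2 BIP2 was at -0.81. The weakest BIP1 value over the 18 alternatives was -1.55. The BiP coding sequences were 96.8% identical, so the split of reads between them is uncertain.

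The mitochondrial genes MTHSC70-1 and MTHSC70-2, whose products drive protein import, fell by 2.31 (SE 0.64, adjusted p = 0.00178, DESeq2) and 1.83 (SE 0.60, adjusted p = 0.0104, DESeq2) on the log2 scale. MTHSC70-1 had 56.2 and 66.0 in WT Col-0 and 17.5 and 6.75 in WT FTL, and MTHSC70-2 had 128 and 122 against 38.8 and 31.5. Over the 18 alternatives MTHSC70-1 ranged from -3.18, without WT FTL replicate 1, to -1.80, and MTHSC70-2 from -1.99 to -1.69. The chloroplast gene CPHSC70-2 had 1269 and 1295 in WT Col-0, 2297 and 847 in WT FTL, with 1283 and 1048 in nrpd1a-3 FTL, and was not called (log2 0.30 ± 0.42, 95% interval -0.53 to 1.12). CPHSC70-2 shares 61 bases with the antisense gene AT5G49920, which had 22362 to 160035 reads against 630 to 2488 for CPHSC70-2, and the use of strand in counting is not given in the sources used here, so an unknown part of the CPHSC70-2 reads may belong to its neighbour.

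**Figure D3:**
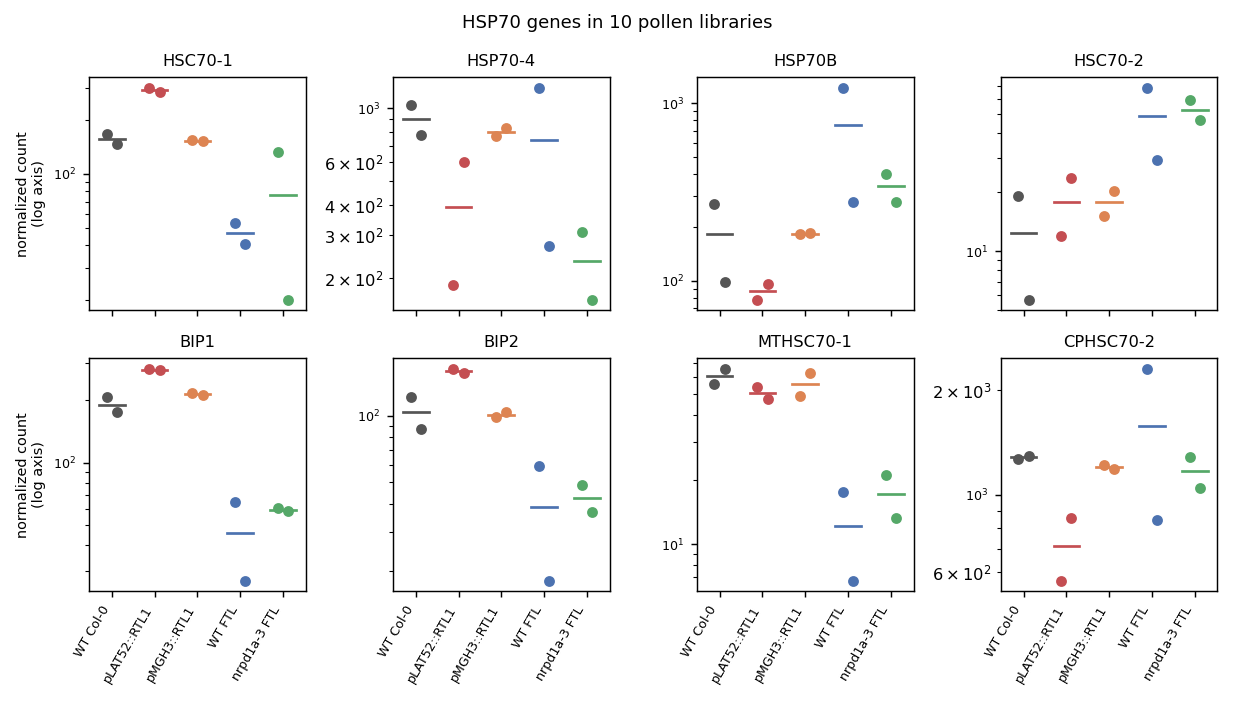
Normalized counts (log y axis, a separate range for each panel) of 8 HSP70 genes in each of the 10 libraries; dots are libraries, bars are means of the 2 libraries of a group (x axis). HSC70-1 is higher in pLAT52::RTL1 (301 and 287) than in WT Col-0 (166 and 146), and BIP1, BIP2 and MTHSC70-1 are lower in all 4 sorted libraries than in all 6 unsorted ones.

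Among the HSP90 genes 5 were tested, of which 3 rose and none fell. HSP90.1 (AT5G52640, chromosome 5, 21352399 to 21355361), the heat-inducible cytosolic HSP90, had normalized counts of 22.5 and 5.65 in WT Col-0, 90.48 and 117 in WT FTL, with 103 and 126 in nrpd1a-3 FTL. It rose 7.50-fold in WT FTL (log2 2.91 ± 0.64, adjusted p = 5.73e-05, DESeq2), with log2 values of 4.18 without WT Col-0 replicate 1 and 2.19 without replicate 2. HSP90.4, the most abundant HSP90 per kilobase, had 187 and 162 in WT Col-0 and 165 and 144 in WT FTL and was not called (log2 -0.17 ± 0.36, 95% interval -0.87 to 0.53).

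The nearly identical constitutive genes of the cluster on chromosome 5 were less certain. HSP90.2 rose from 31.5 and 22.6 to 120.0 and 69.8 (log2 1.82 ± 0.74, adjusted p = 0.0465, DESeq2), and HSP90.3 from 11.2 and 0.942 to 59.1 and 41.6 (log2 3.08 ± 1.02, adjusted p = 0.0117, DESeq2). HSP90.3 was at 5.73 without WT Col-0 replicate 1 and at 2.15, not called, without replicate 2. HSP90.2, HSP90.3 and HSP90.4 were 94.3% to 95.7% identical in coding sequence and may share reads. HSP90.7, the endoplasmic reticulum HSP90, was not called (log2 0.09 ± 0.74).

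HSP101, which dissolves protein aggregates in the cytosol and is required for thermotolerance, was not called. By normalized count, the libraries of WT Col-0 stood at 15.74 and 7.54, of pLAT52::RTL1 at 23.2 and 15.39, of pMGH3::RTL1 at 28.4 and 14.8, of WT FTL at 55.4 and 27.0, and of nrpd1a-3 FTL at 35.9 and 16.6. The log2 fold change in WT FTL was 1.84 ± 0.80 and did not pass the test (adjusted p = 0.0679, DESeq2). It was called higher with the filter of 10 reads in 2 libraries (1.84, adjusted p = 0.0461, DESeq2) and without nrpd1a-3 FTL replicate 2 (1.90, adjusted p = 0.0433, DESeq2). Its range in sorted pollen overlapped that of the RTL1 libraries.

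Of the regulators, 3 of 8 were tested, and 1 rose and 1 fell. MBF1C (AT3G24500, chromosome 3, 8918679 to 8919683), a transcriptional coactivator of the heat response, was measured in all libraries, with the normalized counts of WT Col-0 at 45.0 and 41.5, of pLAT52::RTL1 at 53.0 and 39.2, of pMGH3::RTL1 at 60.6 and 51.9, of WT FTL at 146 and 217, and of nrpd1a-3 FTL at 192 and 429. MBF1C rose 4.20-fold in WT FTL (log2 2.07 ± 0.49, adjusted p = 0.000197, DESeq2), with no overlap between sorted and unsorted libraries. HSFB2A had 179 and 171 in WT Col-0 and 126 and 133 in WT FTL and was not called (log2 -0.44 ± 0.35, adjusted p = 0.375).

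HSFB2B, also a repressor-type HSF, had 85.4 and 56.5 in WT Col-0 and 27.7 and 13.5 in WT FTL, and fell by 1.77 on the log2 scale (SE 0.64, adjusted p = 0.0232, DESeq2). HSFB2B and the antisense gene AT4G11670 overlap over 465 bases, and AT4G11670 fell by 1.44 (SE 0.56, adjusted p = 0.0365, DESeq2) with similar reads, 10 to 98 against 9 to 76 for HSFB2B. Without known strand their reads cannot be told apart. Without WT FTL replicate 1 HSFB2B was at -2.39, and its weakest value over the 18 alternatives was -1.35.

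**Figure D4:**
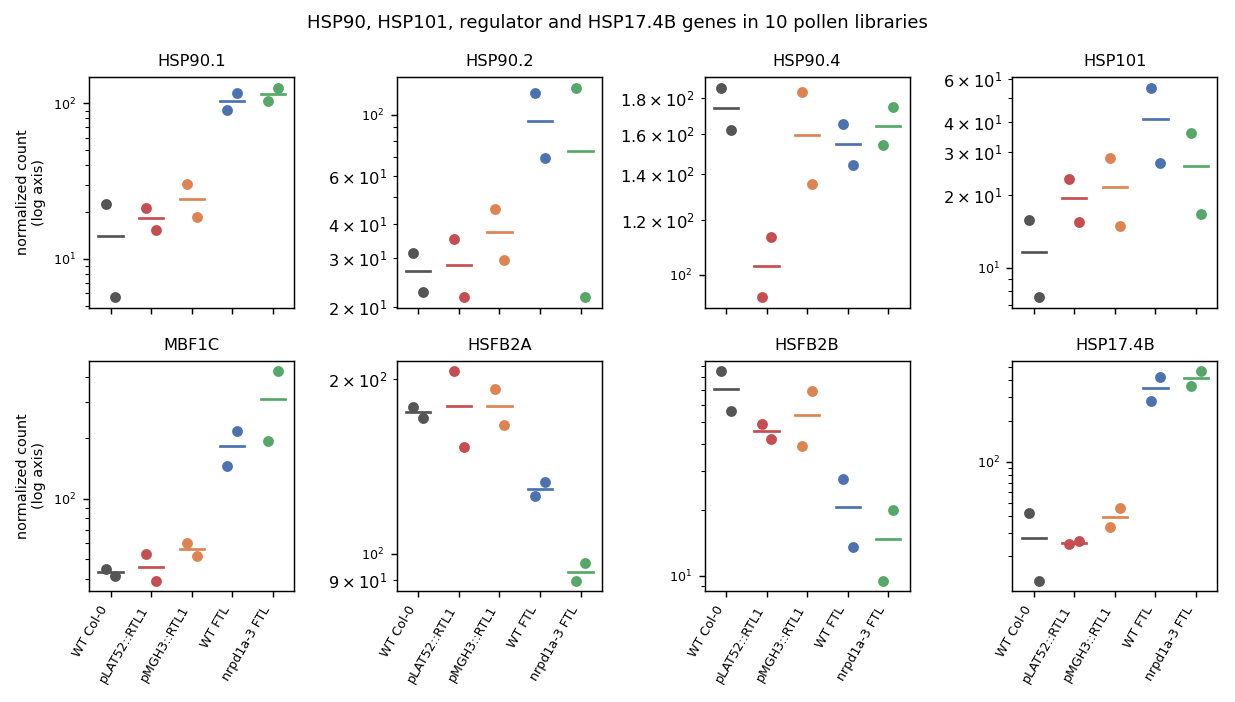
Normalized counts (log y axis, a separate range for each panel) of HSP90.1, HSP90.2, HSP90.4, HSP101, MBF1C, HSFB2A, HSFB2B and HSP17.4B in each of the 10 libraries; dots are libraries, bars are means of the 2 libraries of a group (x axis). HSP90.1, MBF1C and HSP17.4B are higher in all 4 sorted libraries than in all 6 unsorted ones, and HSP90.4 overlaps between them.

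The calls in WT FTL rested on 2 libraries a group. Of the 21 called members 12 kept their call under all 18 alternatives, namely the 8 cytosolic sHSPs, HSP17.4B, BIP1, HSP90.1 and MBF1C, and HSC70-1, HSC70-2, HSP70B, BIP2, MTHSC70-1, MTHSC70-2, HSP90.2, HSP90.3 and HSFB2B lost it under at least 1. HSP90.2 lost it under 11, BIP2 under 9 and HSC70-2 under 8, and the other 6 under 2 or 3. Without WT Col-0 replicate 2, 12 members were called. Among the 29 tested members, 13 were above and 7 below all 6 unsorted libraries in all 4 sorted libraries, against 18.7% and 20.6% of all features tested, a count that includes nrpd1a-3 FTL. The 13 include HSP22, which was near the floor, with 0 to 2 reads in the unsorted libraries and 2 to 14 in the sorted ones. The 7 below are not the same genes as the 7 called lower. They include HSFB2A, which was not called, at 89.7 to 133 in sorted and 152 to 206 in unsorted libraries. MTHSC70-2, which was called lower, overlapped, at 31.5 to 49.9 against 29.2 to 170.

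The members were set beside further genes of the heat response. Of 14 other HSFs 9 were tested, and HSFA4C (log2 1.12 ± 0.33), HSFA5 (1.15 ± 0.30) and the seed factor HSFA9 (1.31 ± 0.37) rose in WT FTL while none fell, a called share of 33.3% against 30.3% of all features. For HSFA5, a class A factor that acts as a partner of HSFA4 proteins, the WT Col-0 libraries were at 1974 and 1967 normalized counts and the WT FTL libraries at 3466 and 5269.6. Of 21 co-chaperone and other heat response genes 17 were tested, with 2 higher, 2 lower and 13 not called, a smaller share than the 30.3% of all features. Neither count is a result about its list. FES1A, a partner of cytosolic HSP70, rose (log2 1.80 ± 0.41), as did HSBP, a binding protein of HSFs (1.16 ± 0.46). The DnaJ proteins J2 and J3, which hand substrates to HSP70, fell by 1.74 (SE 0.53) and 1.70 (SE 0.50). APX2 and CLPB4 had 0 reads in all libraries.

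Of 14 endoplasmic reticulum genes, all tested, 1 rose and 3 fell in WT FTL and 10 were not called. BZIP60, a transcription factor of the unfolded protein response, rose (log2 1.27 ± 0.39). BZIP28, which acts in the same response, fell by 1.89 (SE 0.38), the calreticulin CRT1A by 1.89 (SE 0.71) and the DnaJ protein ERDJ3B by 1.29 (SE 0.33). The called share of 28.6% was close to the 30.3% of all features, so the count is no result about the list.

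RTL1 behind the LAT52 promoter was accompanied by few changes in heat shock genes. In pLAT52::RTL1 against WT Col-0, 28 members were tested and 4 were called, 1 higher and 3 lower. Over all genes and TEs 14.3% were called, 6.53% higher and 7.77% lower, so the share among members was close to the background. The median log2 fold change was -0.19 over the 28 members and -0.01 over all features tested. The vegetative markers were lower in 4 of 10 cases, with a summed normalized count of 983058 to 1329140 against 1814210 to 1910500 in WT Col-0, and leaf markers were higher in 3 of 4 tested, with sums of 288 to 357 against 167 to 234. Their part in these results was not tested.

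HSC70-1, at 301 and 287 against 166 and 146, rose 1.88-fold (log2 0.91 ± 0.26, adjusted p = 0.00473, DESeq2). HSP17.4 had 67.6 and 117 against 269.8 and 139 and fell by 1.15 (SE 0.36, adjusted p = 0.0127, DESeq2). HSP70B had 78.2 and 96.5 against 269.8 and 98.0 and fell by 1.07 (SE 0.39, adjusted p = 0.0454, DESeq2). For these genes both pLAT52::RTL1 libraries lay outside the range of WT Col-0, by the smallest margin for HSP70B. The HSP70B call was lost under 11 of 14 alternatives, edgeR and TMM factors among them, and was -0.19 without WT Col-0 replicate 1. Of the 4 called members 0 kept the call under all 14 alternatives, HSP17.4 and HSC70-1 losing it under 4 and CPHSC70-2 under 3.

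CPHSC70-2 had 567 and 857 against 1269 and 1295 and fell by 0.86 (SE 0.21, adjusted p = 0.000725, DESeq2). The overlapping gene AT5G49920 fell by 1.02 (SE 0.18, adjusted p = 3.73e-07, DESeq2), and shared reads were not separated from a change of CPHSC70-2. HSP70-4 and MTHSC70-2 differed between the pLAT52::RTL1 libraries: HSP70-4 had 187 and 599 against 1027 and 776, and MTHSC70-2 had 29.2 and 120.3 against 128 and 122. Neither was called, HSP70-4 at -1.21 ± 0.65 (adjusted p = 0.239, DESeq2) and MTHSC70-2 at -0.76 ± 0.76 (adjusted p = 0.623). Without pLAT52::RTL1 replicate 2 both were called lower (-2.25 and -2.08), and HSP70-4 also without replicate 1 (-0.60).

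**Figure D5:**
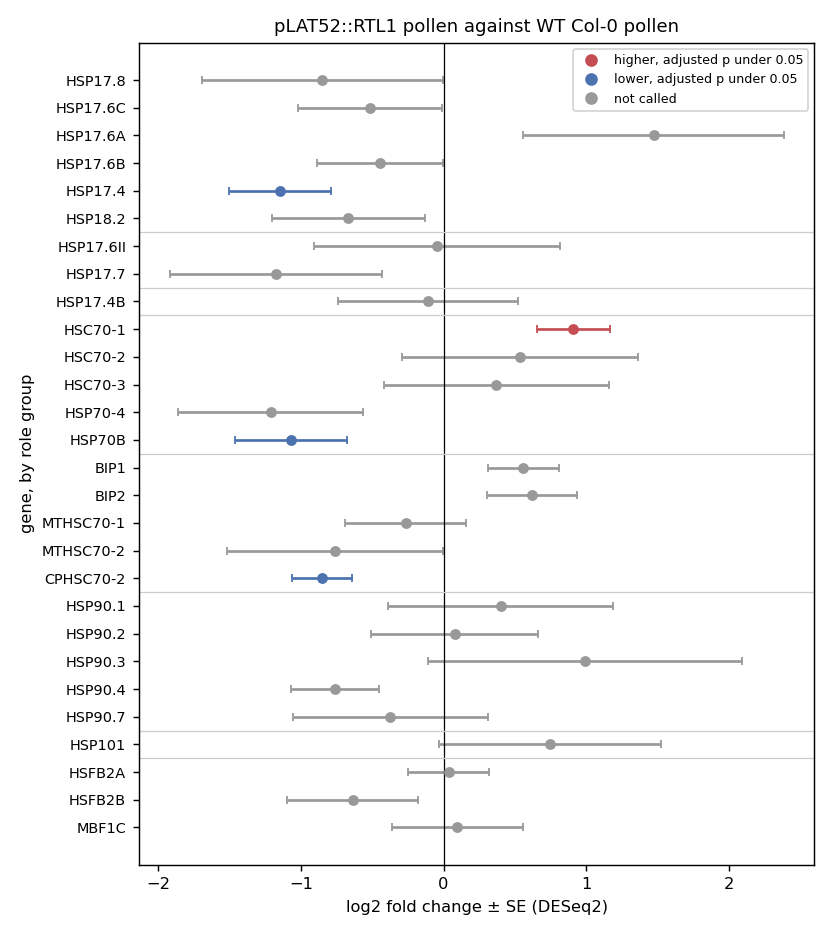
DESeq2 log2 fold change with its SE (x axis) for the 28 tested heat shock genes (y axis, by role group) in pLAT52::RTL1 against WT Col-0 pollen, 2 libraries each. HSC70-1 (0.91, red) is higher, and HSP17.4 (-1.15), HSP70B (-1.07) and CPHSC70-2 (-0.86), in blue, are lower; grey genes were not called.

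The split of these calls into higher and lower depended on the scaling. Scaling by total reads moved the median of all features by 0.48 in pLAT52::RTL1, and 3 members were then called higher (HSC70-1, BIP1 and BIP2, at 1.39, 1.04 and 1.104) and 0 lower. HSC70-1 was above the median of all features under both. The counts also rested on single libraries: 1 member was called without WT Col-0 replicate 1, 2 without WT Col-0 replicate 2, 2 without pLAT52::RTL1 replicate 1, and 0 in the fit of all 10 libraries. In the endoplasmic reticulum list, ERDJ3B alone of 12 tested was called, higher at 1.55 ± 0.20 (adjusted p = 2.66e-13, DESeq2), with 1002 and 1155 normalized counts against 357 and 379. BIP1 and BIP2 were at 0.56 ± 0.25 and 0.62 ± 0.32 and were not called. FES1A fell by 1.14 (SE 0.31), HSFA5 fell by 0.88 (SE 0.17) and HSBP rose (log2 0.86 ± 0.28).

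pLAT52::RTL1 against pMGH3::RTL1 asked whether the promoter mattered. Of 27 members tested, 1 was higher and 3 were lower, against 12.9% of all features called, 5.53% higher and 7.36% lower. The median over the 27 members was -0.54, against -0.01 over all features. The called members were HSC70-1 (log2 0.92 ± 0.26, adjusted p = 0.00413, DESeq2), HSP17.4 (-1.24 ± 0.36, adjusted p = 0.00549, DESeq2), HSP70B (-1.10 ± 0.39, adjusted p = 0.0402, DESeq2) and CPHSC70-2 (-0.78 ± 0.21, adjusted p = 0.00288, DESeq2), the same genes as against WT Col-0. HSP70B lost this call under 9 of 14 alternatives, edgeR and no independent filtering among them, HSP17.4 under 5, and HSC70-1 and CPHSC70-2 under 4. Of the 10 vegetative cell markers 4 were lower here as well, with sums of 983058 to 1329140 against 1862010 to 1920790 in pMGH3::RTL1, and their part was not tested. The pLAT52::RTL1 libraries are shared by both comparisons. Scaling by total reads moved the median by 0.49, and of these called members only HSC70-1 then kept its call. BIP1 and BIP2 were newly called (log2 0.86 and 1.13), and all 3 calls were higher. The calls also rested on single libraries.

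The comparison of pMGH3::RTL1 used the same WT Col-0 libraries as that of pLAT52::RTL1. Of 41 tested members 0 were called (DESeq2), against 0.0217% of all features, 2 had an unadjusted p under 0.05, and edgeR called 0. The pMGH3::RTL1 replicates were close together for HSP17.6B (94.7 and 92.6), HSP17.4 (219 and 211) and HSC70-1 (153 and 152). HSP17.6A, at 16.1 and 30.6 against 10.12 and 1.88 in WT Col-0, had a log2 fold change of 2.01 ± 0.91 that did not pass the test. Leaf marker sums were raised here as in pLAT52::RTL1, at 322 and 413 against 167 to 234 in WT Col-0. Of 10 leaf markers tested 1 was called higher, and their part was not tested.

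The loss of Pol IV was compared within sorted pollen, in nrpd1a-3 FTL against WT FTL. None of 41 tested members was called (DESeq2), against 0.008% of all features, 1 had an unadjusted p under 0.05, and edgeR called 0. Over the 8 cytosolic sHSPs, HSP18.2 with its 2 to 8 reads included, the summed normalized count was 3637 to 6884 in nrpd1a-3 FTL and 3523 to 4348 in WT FTL, of which HSP17.6B made up 5194 in the highest library. For HSP17.6B the difference was 0.90 ± 0.57 on the log2 scale, and for HSP70-4 it was -1.71 ± 0.68. Both fractions came from the same kind of plants and were sorted at the same time, although no source says that equal replicate numbers mark a shared sort. With the replicate number as a block, 2 members were called, HSP17.6B higher (0.88, adjusted p = 0.0171, DESeq2) and HSP70-4 lower (-1.44, adjusted p = 0.00814, DESeq2). In both numbered pairs HSP17.6B was higher in nrpd1a-3 FTL, at 1692 against 964 and at 5194 against 2427, and HSP70-4 was lower, at 308 against 1213 and at 163 against 270.1. The SEs without the block leave room for changes of 2-fold or more, so the values do not show that the groups are alike.

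The effect of pLAT52::RTL1 (against WT Col-0) was also set against that of nrpd1a-3 FTL (against WT FTL) by an interaction contrast. None of 28 tested members was called for a difference of effects (DESeq2), against 2.73% of all features, 1 had an unadjusted p under 0.05, and edgeR called 0. For HSC70-1 the pLAT52::RTL1 effect was 0.91 ± 0.26 and the nrpd1a-3 FTL effect 0.73 ± 0.96, and the difference of effects in the joint fit was 0.19 ± 0.85. The nrpd1a-3 FTL libraries were at 133 and 19.96 for HSC70-1. Without replicate 1 of nrpd1a-3 FTL the difference of effects was 2.15. Between 0 and 2 members were called when 1 library was left out, with 2 (HSP17.6B and HSC70-1) without nrpd1a-3 FTL replicate 1 and 1 each without pLAT52::RTL1 replicate 2 (MTHSC70-2) and without WT FTL replicate 2 (HSP17.6B).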

How the data were processed

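Pollen mRNA of 10 libraries was sequenced by the authors as paired-end reads on DNBSEQ and aligned with STAR to TAIR10. The deposited values are raw read counts for genes, TEs and intergenic intervals; the counting program, its use of strand and its treatment of multiply mapped reads are not given in the sources used here. Between 65.7% and 74.8% of abundant features held an even count, so mates may have been counted singly. Intergenic rows (2.23% to 6.33% of reads) were left out. The 58583 genes and TEs were fitted with DESeq2 (1.42.0, R 4.3.3) at an adjusted p of 0.05, as in the study's methods, in a fit of the 6 RTL1 and WT Col-0 libraries, a fit of the 4 sorted libraries and, for comparisons across them, a fit of all 10. Every library entered its fit and no count was imputed. Alternatives were edgeR (4.0.16) quasi-likelihood tests, TMM factors, total reads, size factors that ignored TEs together with the top 100 features, a filter of 10 reads in 2 libraries, no independent filtering, a replicate block, each library left out, and, chosen after seeing the data, the 4 libraries of WT Col-0 and WT FTL alone. Scripts were tested on simulated data. The labels number the replicates without saying which came from separate plants, so p-values measure the spread between the libraries of a fit. Each fit shared 1 estimate of spread per feature, so p-values of WT FTL against WT Col-0 also rest on the other groups. Replicates lay further apart in sorted pollen. The chi-square of replicate counts per degree of freedom was 582 in WT FTL and 586 in nrpd1a-3 FTL. It was 29.6 in WT Col-0, 226 in pLAT52::RTL1 and 50.7 in pMGH3::RTL1.

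Lengths are of the longest RefSeq transcript (TAIR10.1, whose chromosome lengths match the tables). The windows searched for heat shock elements used the gene starts of the tables and the RefSeq strand. For some members they lay wholly inside the longest RefSeq transcript and did not reach upstream of it. Identity was computed on coding sequences. All 46 members were described by role. Per-library values were given for the most abundant member of each role per kilobase, for called members (up to 10 of the largest changes with a mean of at least 50 where over 5 were called), and for others where a group is described, which were chosen after their values were seen. Members and lists were chosen with earlier results of these data known.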

Additional observations from a re-analysis of the deposited data

How the results depend on the processing

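In the replicate block fit of nrpd1a-3 FTL against WT FTL, 2 members were called instead of 0: HSP17.6B (log2 0.88, adjusted p = 0.0171, DESeq2) and HSP70-4 (-1.44, adjusted p = 0.00814, DESeq2). This block tested 2930 features, with 344 higher and 63 lower, against 2 and 0 of 24995 without it. The labels do not say that the numbers pair libraries, and the correlation of same-numbered deviations from the group means was 0.488 for these groups and -0.0975 to 0.212 for the others; the block moved no other count by over 1.5 times. The fit of all 10 libraries called 0 members in pLAT52::RTL1 against WT Col-0 and 0 against pMGH3::RTL1, where the separate fit called 4 each. With 1 library left out, the counts ranged from 1 to 5 in pLAT52::RTL1 against WT Col-0, 0 to 5 in pLAT52::RTL1 against pMGH3::RTL1, 12 to 22 in WT FTL against WT Col-0 and 0 to 2 for the difference of effects, and stayed at 0 for pMGH3::RTL1 and nrpd1a-3 FTL. Under the other alternatives WT FTL against WT Col-0 gave 18 to 22, and the 4-library fit 18. Taking each called member under each alternative gave 490 values, which share libraries and are not independent. No value changed direction, and 88 lost the call. Scaling by total reads moved the median of all features by 0.48 in pLAT52::RTL1 against WT Col-0, by -0.30 in nrpd1a-3 FTL, by -0.11 in WT FTL against WT Col-0 and by 0.86 for the difference of effects, which TMM moved by 0.19. Members at or under 8 reads are too thinly covered for any comparison.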
